A study of Mus musculus with 8 samples.

Results

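The genes described here are 10 mouse genes of the Wnt pathway, namely the transcription factor genes Tcf7l2, Tcf7l1 and Lef1, the β-catenin gene Ctnnb1, and Apc, Axin1, Axin2, Apcdd1, Daam2 and Nkd1, whose products restrain or relay the signal. They were taken by name from a table of 24346 genes. The list was drawn up with earlier results of these data known, although its rule uses no measured value. RNA-seq was performed on 8 libraries of induced immature oligodendrocytes (iOLs), 4 labelled Med23+/+ and 4 labelled Med23-/-. Oligodendrocyte precursor cells (OPCs) were immunopanned with an antibody to CD140a from the brains of mice at postnatal day 7, after plates coated with the lectin BSL1 had removed endothelial cells and microglia. Both genotypes were expanded with the mitogens PDGF-AA (10 ng/mL) and NT-3 (1 ng/mL) and then kept for 1 day in 15 nM of the thyroid hormone T3 with 10 ng/mL ciliary neurotrophic factor.

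The Med23-/- cells carried floxed Med23 (Med23 fl/fl) and 1 copy of the Cre of the Olig1-Cre line (Olig1-Cre+/-). The deletion thus arose in vivo in the cells of the oligodendrocyte lineage that express Cre. The labels call the other genotype WT. In the study the control mice of this cross were littermates with the floxed alleles (Med23 fl/fl), so the Med23+/+ cells would carry floxed Med23 without Cre, and the presence of Cre and the loss of Med23 cannot be told apart between the groups. The labels also do not say whether the 4 replicates of a genotype came from separate animals or cultures, so the p-values below measure the spread between these libraries, which may in part be technical.

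Expression was deposited as FPKM, the number of fragments on a gene scaled by its length and by the size of the library, without read counts, so the depth behind each value is unknown. The genotypes were compared with limma on log2(FPKM + 1) across 12328 genes, those that averaged 1 FPKM or more over the 8 libraries. A gene near this limit could thus be tested only because it was high in 1 genotype. A gene is said to pass, to rise or to fall where its Benjamini-Hochberg adjusted p is below 0.05, and each log2 difference is Med23-/- minus Med23+/+ on the log2(FPKM + 1) scale, which understates the change of weakly expressed genes. By this test 14.1% of all genes tested were lower in Med23-/- iOLs and 15.9% were higher. With a fold change of FPKM + 1 above 2 as a further limit, called the fold limit below, 1.75% were lower and 2.98% were higher. The libraries of the genotypes did not overlap for 31.6% of the genes tested, in either direction.

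Med23, the targeted Mediator subunit gene, was measured at 12.7, 12.2, 12.6 and 12.6 FPKM in the Med23+/+ libraries and at 8.40, 7.93, 8.49 and 8.21 FPKM in the Med23-/- libraries. Its transcript was lower in the libraries labelled Med23-/- (log2 difference -0.55, SE 0.07, adjusted p = 0.000353) and remained there at 0.658 times its Med23+/+ mean. Gene-level FPKM cannot separate transcripts that retained the floxed part from those that lost it.

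Markers of the labelled cell type were present in all 8 libraries. For the counts that follow, 14.1% of all genes tested were lower and 15.9% higher. Past the fold limit 1.75% were lower and 2.98% higher. The summed level of 15 OPC genes ranged from 2398 to 2699 FPKM in Med23+/+ libraries and from 2515 to 2994 FPKM in Med23-/- libraries, with 6 genes lower and 5 higher. The overlapping sums hid changes of single OPC genes. Past the fold limit 2 rose, Pdgfra (from a mean of 120.7 to 334.3 FPKM, log2 difference 1.47) and Cspg4 (from 38.9 to 102.5 FPKM, 1.39), and 1 fell, Gpr37l1 (from 190.3 to 89.7 FPKM, -1.07). The sum of 15 immature oligodendrocyte genes ranged from 2940 to 3319 FPKM in Med23+/+ libraries and from 822 to 1471 FPKM in Med23-/- libraries, and 13 of the 15 genes fell. Of 12 mature oligodendrocyte genes 7 were tested, of which 6 fell and Gjb1 rose, and the list summed to 681 to 879 FPKM in Med23+/+ libraries and to 196 to 331 FPKM in Med23-/- libraries. Gjb1 averaged 0.586 FPKM in Med23+/+ iOLs and reached the limit for testing only through its Med23-/- libraries. Likewise Mog and Mag, which fell, averaged 0.539 and 0.860 FPKM in Med23-/- iOLs and reached it only through their Med23+/+ libraries. The sum of 10 neuron markers was 115 to 145 FPKM in Med23+/+ libraries and 186 to 257 FPKM in Med23-/- libraries, with 8 of 10 higher, 0 lower and 0 of them listed at 0. Of 10 astrocyte markers 9 were tested, of which 3 fell past the fold limit as well (Fgfr3, Gfap and Aqp4, with log2 differences of -2.05, -1.70 and -1.29), Slc1a2 rose (0.67) and 5 did not pass, while their sums overlapped (154 to 204 and 116 to 188 FPKM). The sums also overlapped for 10 endothelial markers (48.1 to 66.6 and 54.0 to 66.7 FPKM) and 10 pericyte and fibroblast markers (2.18 to 13.5 and 4.58 to 21.7 FPKM). Most of the endothelial sum was Mfsd2a (means of 58.7 and 60.2 FPKM), which did not pass. Of 2 endothelial markers tested the other, Kdr, rose (means of 0.505 and 1.65 FPKM). It reached the limit for testing only through its Med23-/- libraries. Of the pericyte and fibroblast markers tested, 4 of 4 did not pass. Microglia markers summed to 8.03 to 9.08 FPKM in Med23+/+ libraries and 9.59 to 12.5 FPKM in Med23-/- libraries.

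In the Wnt pathway, secreted ligands bind Frizzled receptors and their LRP co-receptors at the cell surface, and the scaffold protein Dishevelled passes the signal on. Without a ligand, a destruction complex built on Axin and APC marks β-catenin for degradation. With a ligand, β-catenin accumulates and binds TCF/LEF factors on DNA, which otherwise sit there with TLE/Groucho corepressors. Several target genes, among them Axin2, Nkd1 and Apcdd1, encode inhibitors of the pathway. In oligodendrocytes TCF7L2 is known as a factor of newly forming cells that is required for their maturation, whereas strong β-catenin signalling is known to delay differentiation.

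The sequences before the RefSeq transcription starts of Tcf7l2, Axin2 and Nkd1 are printed here because these genes carry the strongest decrease, a weaker increase and the strongest increase among the 10. RefSeq windows of 250 bases before to 50 bases after a start (build GRCm38.p6) were found for 7 of the 10 genes, in 13 windows. Each sequence below holds the 250 bases before the start, 5′ to 3′ on the strand of the gene, and capitals mark the GC box GGGCGG, the element bound by Sp1-family factors, on either strand (CCGCCC on the opposite strand). The sequences come from chr19:55741560-55741809 for Tcf7l2, chr11:108920099-108920348 for Axin2 and chr8:88527383-88527632 for Nkd1, all on the plus strand.
Tcf7l2: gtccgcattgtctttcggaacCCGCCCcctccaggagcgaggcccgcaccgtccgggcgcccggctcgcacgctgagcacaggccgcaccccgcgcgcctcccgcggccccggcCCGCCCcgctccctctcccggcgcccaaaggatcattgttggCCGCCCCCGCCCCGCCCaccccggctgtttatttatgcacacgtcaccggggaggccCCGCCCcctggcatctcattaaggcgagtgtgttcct
Axin2: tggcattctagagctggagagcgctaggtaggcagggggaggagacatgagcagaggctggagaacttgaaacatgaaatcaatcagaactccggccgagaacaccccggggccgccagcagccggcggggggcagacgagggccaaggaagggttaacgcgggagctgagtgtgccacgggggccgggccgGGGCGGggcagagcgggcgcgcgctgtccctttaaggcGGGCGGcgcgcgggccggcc
Nkd1: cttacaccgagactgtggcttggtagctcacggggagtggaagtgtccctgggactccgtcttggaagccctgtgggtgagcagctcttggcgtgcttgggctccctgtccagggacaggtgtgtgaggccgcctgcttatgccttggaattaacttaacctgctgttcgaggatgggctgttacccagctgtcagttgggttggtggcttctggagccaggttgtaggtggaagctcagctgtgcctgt

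The Tcf7l2 window held 6 GC boxes, with first bases from position -229 to position -37 relative to the start base at 0, and all 6 were on the opposite strand. Axin2 had 2, at positions -58 and -20 on the strand of the gene, and the Tcf7l1 window (chr6:72788996-72789295, minus strand) also had 2. No GC box was found in the Nkd1 window, in the other Tcf7l2 window or in 1 of the 4 Lef1 windows, whereas both Ctnnb1 windows held 3 and both Daam2 windows held 2. The windows of Ctnnb1 overlap each other, as do those of Daam2, so these boxes are in part the same. The Ctnnb1 boxes at -26 and -15 of 1 window are those at -204 and -193 of the other, and both Daam2 windows hold the same boxes. The Lef1 windows chr3:131110047-131110346 and chr3:131110073-131110372 also overlap, and the box at -32 of the former is that at -58 of the latter. Of all 32851 RefSeq windows of this length, 35.7% held at least 1 GC box. The core of the TCF/LEF element, CTTTGA or TCAAAG on the other strand, stood in 16.0% of all windows and, among these genes, in 1 Lef1 window only, with 2 matches. Such matches describe letters in a window of 300 bases and not occupied sites, and the RefSeq start of Nkd1 lies inside the gene as GENCODE draws it, which begins at position 88521354 of chromosome 8. Both RefSeq starts of Ctnnb1 also lie inside its GENCODE gene, which begins at position 120929216 of chromosome 9. The other Tcf7l2 window (chr19:55895071-55895370) lies inside its gene as well. So do the Lef1 windows chr3:131112541-131112840 and chr3:131156044-131156343, of which the latter holds the TCF/LEF matches.

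Of the 10 genes, Tcf7l2 and Tcf7l1 were lower and Nkd1 and Axin2 were higher in Med23-/- iOLs. Thus, 2 of the 9 tested genes fell, beside 14.1% of all genes tested, and 2 of 9 rose, beside 15.9%. Past both the adjusted p and the fold limit, 1 of 9 fell (Tcf7l2), beside 1.75%, and 1 of 9 rose (Nkd1), beside 2.98%. The libraries of the genotypes did not overlap for 4 of 9, beside 31.6%. The median log2 difference of the 9 genes was 0.10, and that of all genes tested was -0.01. Ctnnb1, Apc, Axin1, Apcdd1 and Daam2 did not pass, and Lef1 was below the limit for testing.

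**Figure D1:**
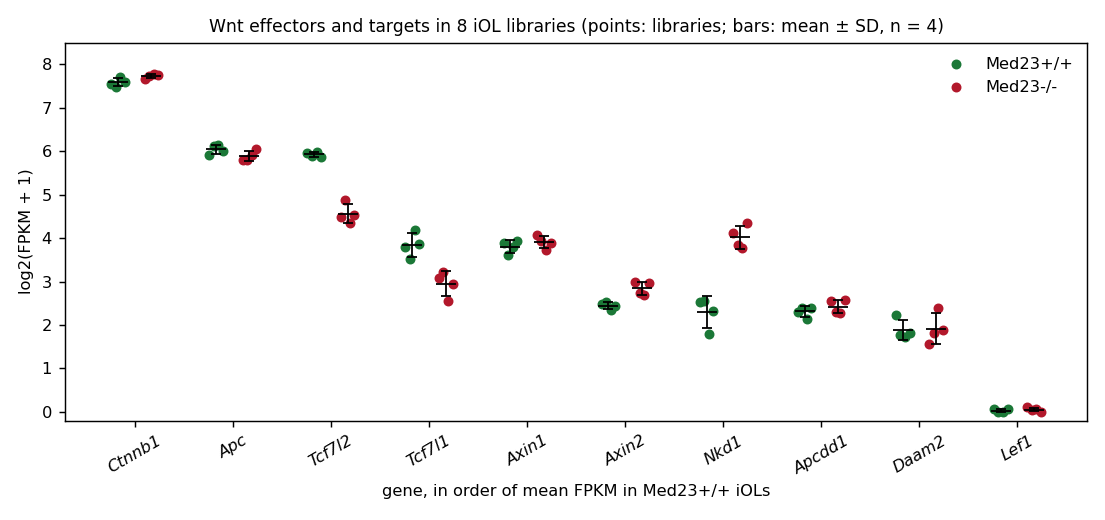
Levels of the 10 genes in each library, as log2(FPKM + 1), with genes in the order of their mean FPKM in Med23+/+ iOLs. Points are libraries, bars are the mean ± SD of 4 libraries, green is Med23+/+ and red is Med23-/-. Tcf7l2 and Tcf7l1 are lower and Axin2 and Nkd1 higher in every red library than in every green one, while the other genes overlap.

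Since FPKM is scaled by length, the levels of the genes could be ordered. Ctnnb1 had the highest mean in both genotypes and Apc the next, and Apc and Tcf7l2 overlapped in Med23+/+ iOLs (59.0 to 69.7 and 57.5 to 61.8 FPKM) but were far apart in Med23-/- iOLs (54.8 to 65.0 and 19.3 to 28.5 FPKM). Tcf7l1 and Axin1 followed in Med23+/+ iOLs, and their libraries overlapped (10.5 to 17.4 and 11.2 to 14.2 FPKM). Axin2, Nkd1, Apcdd1 and Daam2 lay between 2.31 and 4.89 FPKM in every Med23+/+ library, each overlapping its neighbour in the order. In Med23-/- iOLs Nkd1 moved from rank 7 to rank 4 of the 10, next to Axin1, with which its libraries overlapped (12.7 to 19.3 and 12.3 to 15.7 FPKM).

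Tcf7l2, the main TCF/LEF factor of newly forming oligodendrocytes (chr19:55741820-55933654, plus strand, GENCODE vM21 on mm10), was expressed at 61.6, 58.6, 61.8 and 57.5 FPKM in the Med23+/+ libraries and at 21.5, 28.5, 19.3 and 22.3 FPKM in the Med23-/- libraries. All 4 Med23-/- libraries lay far below all 4 Med23+/+ libraries, and Med23-/- replicate 2 was the highest of the low group. The means were 59.8 ± 2.16 and 22.9 ± 3.92 FPKM (SD, n = 4 each), and the Med23-/- mean was 0.383 times that of Med23+/+. The log2 difference was -1.36 (SE 0.11, 95% interval -1.60 to -1.12, limma adjusted p = 4.16e-05). The Med23+/+ mean exceeded that of 89.7% of the genes tested and the Med23-/- mean that of 70.3%. The sum of the immature oligodendrocyte genes fell in the same libraries, as given above. Fewer cells of a stage and less RNA per cell cannot be told apart in bulk RNA, and the part of this in the Tcf7l2 difference was not tested. Tcf7l2 is known for many splice forms, which a value per gene does not separate.

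Tcf7l1, a TCF factor known mostly as a repressor (chr6:72626378-72789254, minus strand), was expressed at 12.8, 10.5, 17.4 and 13.5 FPKM in the Med23+/+ libraries and at 7.51, 8.27, 4.88 and 6.70 FPKM in the Med23-/- libraries. The groups did not overlap, the closest values being those of replicate 2 of each genotype, and Med23+/+ replicate 3 was the highest of all and Med23-/- replicate 3 the lowest. The means were 13.5 ± 2.84 and 6.84 ± 1.46 FPKM (SD, n = 4 each), with a log2 difference of -0.89 (SE 0.17, 95% interval -1.27 to -0.51, limma adjusted p = 0.00377). Within replicates 1 and 2 the difference was -0.51 (adjusted p = 0.0684 in a fit of these 4 libraries), and within replicates 3 and 4 it was -1.28. The annotated antisense genes Gm15401, Gm38320 and Gm15402 overlap Tcf7l1, and the strand setting of the quantification is not given in the sources used here.

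The remaining TCF/LEF genes were near or below the limit for testing. Lef1, a factor associated with strong Wnt activation (chr3:131110471-131224356, plus strand), stood at 0.04, 0, 0 and 0.04 FPKM in Med23+/+ and 0.07, 0.03, 0.04 and 0 FPKM in Med23-/- libraries. It was thus listed at 0 in 3 of 8 libraries and at 0.07 FPKM or less in the others, and was not tested. Tcf7, a factor best known from T cells, lay at 1.27, 0.84, 0.81 and 1.00 FPKM in Med23+/+ and 1.22, 0.93, 0.62 and 1.12 FPKM in Med23-/- libraries, with a mean below 1 FPKM and overlapping groups.

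Summed over the 4 genes, TCF/LEF expression averaged 74.4 ± 4.41 FPKM for Med23+/+ and 30.7 ± 5.29 FPKM for Med23-/- libraries (SD, n = 4 each). The Med23+/+ sums ran from 69.9 to 79.9 FPKM and the Med23-/- sums from 24.8 to 37.7 FPKM, without overlap. Tcf7l2 made up 81.4, 83.8, 77.3 and 79.9% of the sum in the Med23+/+ libraries and 71.0, 75.5, 77.7 and 74.0% in the Med23-/- libraries. It was the main TCF/LEF transcript in all 8 libraries. The share differed by -6.01 percentage points on average (Med23-/- minus Med23+/+), but the groups overlapped, and no test was made of it. Quantile normalization held only the genes tested, so there the share was of Tcf7l2 and Tcf7l1 alone, and its difference was -3.08 points. The gene sets behind -6.01 and -3.08 thus differ, and the effect of the normalization cannot be read from the 2 values.

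**Figure D2:**
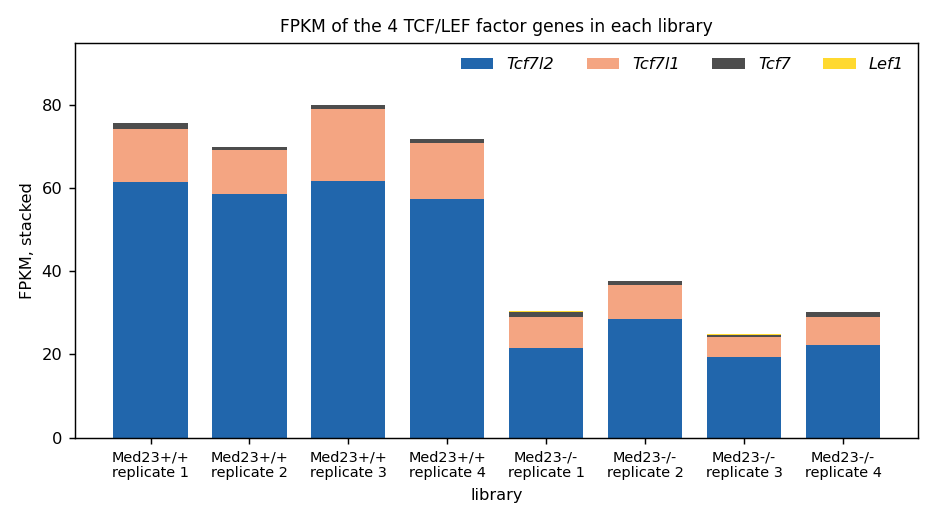
FPKM of the 4 TCF/LEF factor genes stacked for each of the 8 libraries, in the order of replicates within a genotype. The stacks reach 69.9 to 79.9 FPKM for Med23+/+ and 24.8 to 37.7 FPKM for Med23-/-, Tcf7l2 fills most of each stack, and Lef1 is too low to be seen.

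Ctnnb1, which encodes β-catenin (chr9:120929216-120960507, plus strand), was at 186.6, 178.3, 207.9 and 193.1 FPKM in the Med23+/+ libraries and at 201.7, 210.8, 220.2 and 216.0 FPKM in the Med23-/- libraries. All Med23-/- values but 1 exceeded every Med23+/+ value, while replicate 1 fell within the Med23+/+ range. The log2 difference of 0.15 (SE 0.08, 95% interval -0.02 to 0.32) did not pass (limma adjusted p = 0.177). The interval thus holds differences from slightly below 0 to 0.32 on the log2 scale. The transcript level does not measure the amount or the location of β-catenin protein, and Ulk4 overlaps the gene on the opposite strand.

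Apc, the large scaffold protein gene of the destruction complex (chr18:34220924-34322552, plus strand), was at 59.0, 68.1, 69.7 and 63.6 FPKM in Med23+/+ and 54.8, 55.1, 58.8 and 65.0 FPKM in Med23-/- libraries. The 3 lowest values were from Med23-/- libraries, but replicate 4 lay among the Med23+/+ values. Its log2 difference was -0.15 (SE 0.09, 95% interval -0.34 to 0.04, limma adjusted p = 0.203). Axin1, the constitutive Axin scaffold gene (chr17:26138688-26195811, plus strand), was at 13.9, 11.2, 12.9 and 14.2 FPKM in Med23+/+ and 15.7, 14.3, 12.3 and 13.8 FPKM in Med23-/- libraries. The genotypes overlapped, with a log2 difference of 0.10 (SE 0.10, 95% interval -0.12 to 0.32, limma adjusted p = 0.496). For both genes a change of more than about 0.34 on the log2 scale lay outside the interval.

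Axin2, the Axin gene induced by Wnt signals and commonly used as its readout (chr11:108920349-108950783, plus strand), was at 4.61, 4.78, 4.05 and 4.41 FPKM in the Med23+/+ libraries and at 6.89, 5.64, 5.41 and 6.83 FPKM in the Med23-/- libraries. Every Med23-/- library was above every Med23+/+ library, and replicates 1 and 4 were the highest. The means were 4.46 ± 0.313 and 6.19 ± 0.777 FPKM (SD, n = 4 each), 1.39 times as high in Med23-/- iOLs, with a log2 difference of 0.39 (SE 0.10, 95% interval 0.17 to 0.62, limma adjusted p = 0.0162). This call was lost after quantile normalization, where the difference was 0.27 (adjusted p = 0.0632). The ratio of Axin2 to Axin1, both per length, was 0.346 ± 0.0540 in Med23+/+ and 0.442 ± 0.0407 in Med23-/- iOLs. The highest Med23+/+ ratio, 0.426 in replicate 2, lay above the lowest Med23-/- ratio of 0.395, so the ratios overlapped. Gm11670 is annotated antisense to Axin2.

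Nkd1, a Wnt target gene whose product binds Dishevelled and restrains the signal (chr8:88521354-88594884, plus strand), was at 4.80, 4.89, 2.44 and 3.98 FPKM in the Med23+/+ libraries and at 16.4, 13.3, 12.7 and 19.3 FPKM in the Med23-/- libraries. The lowest Med23-/- value was well above the highest Med23+/+ value, and Med23+/+ replicate 3 was the lowest library. The means were 4.03 ± 1.14 and 15.4 ± 3.05 FPKM (SD, n = 4 each), 3.84 times as high in Med23-/- iOLs. The log2 difference was 1.72 (SE 0.19, 95% interval 1.31 to 2.14, limma adjusted p = 0.000196), and it was 1.43 within replicates 1 and 2 and 2.01 within replicates 3 and 4. The sum of the neuron markers was higher in the same Med23-/- libraries (186 to 257 FPKM, against 115 to 145 FPKM). The OPC genes Pdgfra and Cspg4 were also higher there, and the OPC gene Gpr37l1 was lower. The part of these shifts in the Nkd1 and Axin2 differences was not tested.

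Apcdd1 and Daam2 did not pass. Apcdd1, a target gene whose membrane protein inhibits Wnt signals at the cell surface (chr18:62922231-62961179, plus strand), was at 3.95, 4.28, 3.41 and 4.28 FPKM in Med23+/+ and 4.82, 3.93, 3.82 and 4.92 FPKM in Med23-/- libraries. Replicates 1 and 4 of Med23-/- were the highest and the others lay within the Med23+/+ range. Its log2 difference was 0.11 (SE 0.11, 95% interval -0.14 to 0.35, limma adjusted p = 0.498), and after quantile normalization it was -0.02. Daam2, a formin that binds Dishevelled and is known as a brake on oligodendrocyte differentiation (chr17:49456022-49564343, minus strand), was at 3.69, 2.41, 2.31 and 2.52 FPKM in Med23+/+ and 1.94, 2.52, 4.27 and 2.69 FPKM in Med23-/- libraries. A single library stood high in each genotype, Med23+/+ replicate 1 and Med23-/- replicate 3, and the groups overlapped. The log2 difference of Daam2 was 0.03 (SE 0.19, 95% interval -0.39 to 0.44, limma adjusted p = 0.931), and it was -0.31 within replicates 1 and 2 and 0.37 within replicates 3 and 4. Its wide interval leaves changes of up to 0.44 on the log2 scale undetected in these libraries.

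The other genes of the pathway were described by lists grouped by role, which together held 130 symbols, of which 126 were in the table and 83 were tested. Of the 83 genes, 13 were lower in Med23-/- iOLs, beside 14.1% of all genes tested, 25 were higher, beside 15.9%, and 45 did not pass. Past the fold limit as well, 2 were lower, beside 1.75% of all genes tested, and 10 were higher, beside 2.98%. The count of lower genes was thus close to the background. The median log2 difference of the 83 genes was 0.09, beside -0.01 for all genes tested. The neuron marker sum was higher, and the immature oligodendrocyte sum lower, in the same Med23-/- libraries. Past the fold limit the OPC genes Pdgfra and Cspg4 were higher and Gpr37l1 was lower. The part of these shifts in the differences below was not tested.

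**Figure D3:**
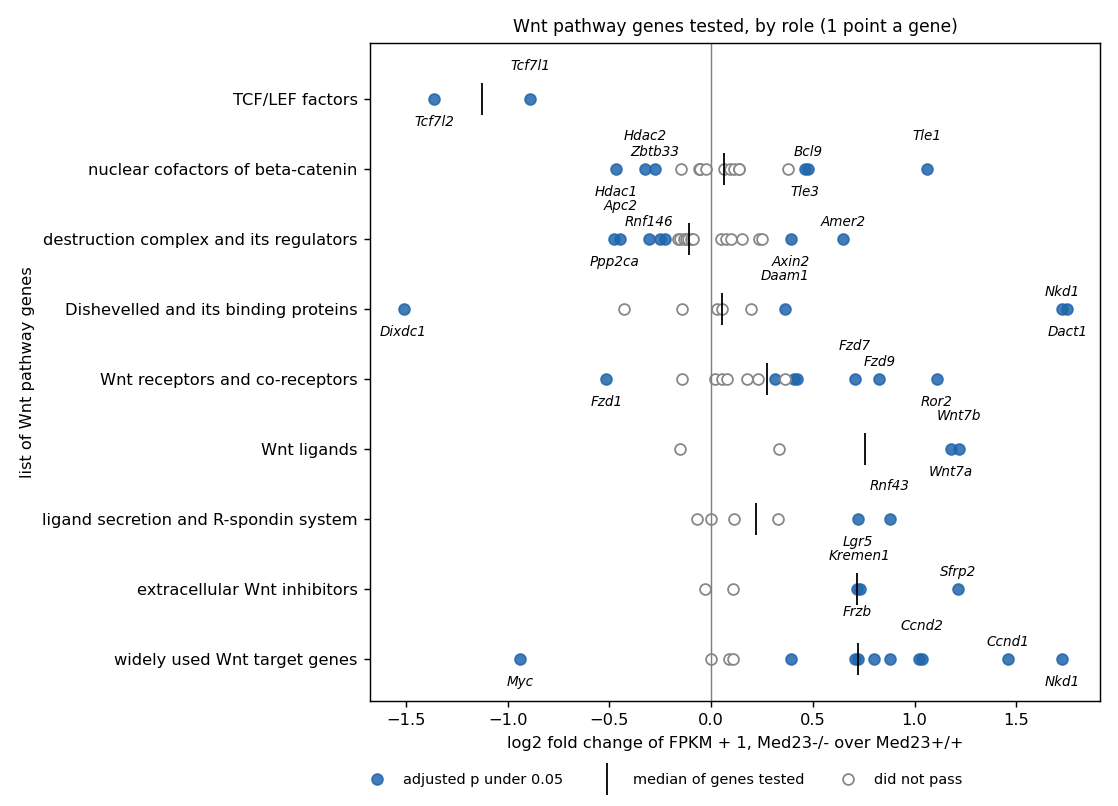
Log2 difference of FPKM + 1 (Med23-/- over Med23+/+) of the Wnt pathway genes tested, in 9 lists by role, 1 point a gene. Filled points passed the limma test, open points did not, the black stroke is the median of the list, and a gene in more than 1 list is drawn in each. The TCF/LEF median lies at -1.13, and those of the ligands, extracellular inhibitors and target genes lie at 0.75, 0.72 and 0.72.

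Wnt ligands were few. Of 19 ligand genes 4 were tested, and 2 (Wnt1 and Wnt10b) were listed at 0 in all 8 libraries. Past both limits 2 rose, beside 2.98% of all genes tested, and 0 fell, beside 1.75%. Wnt7b was at 5.47, 4.70, 2.76 and 3.62 FPKM in Med23+/+ and 10.9, 9.88, 9.49 and 12.7 FPKM in Med23-/- libraries, without overlap (log2 difference 1.22, SE 0.17, limma adjusted p = 0.000661). Wnt7a, its close paralog and like it a ligand for which OPCs are a known source, was at 3.08, 2.35, 1.78 and 2.20 FPKM in Med23+/+ and 6.04, 4.97, 7.76 and 7.66 FPKM in Med23-/- libraries. The groups of Wnt7a did not overlap either (log2 difference 1.18, SE 0.16, limma adjusted p = 0.000581).

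Among 18 receptors and co-receptors in the table, 14 were tested. Of these, 6 rose, beside 15.9% of all genes tested, 1 fell, beside 14.1%, and 7 did not pass (median log2 difference 0.27). The receptor tyrosine kinase gene Ror2, a receptor for non-canonical ligands, rose from 1.73 ± 0.217 to 4.999 ± 1.36 FPKM (SD, n = 4 each; log2 difference 1.11, limma adjusted p = 0.000939). The Frizzled genes Fzd9 (log2 difference 0.83, limma adjusted p = 0.001) and Fzd7 (log2 difference 0.70, limma adjusted p = 0.0031) also rose, whereas Fzd1 fell from 11.3 ± 2.19 to 7.52 ± 0.542 FPKM (log2 difference -0.52, limma adjusted p = 0.0142). Fzd7 averaged 0.634 FPKM in Med23+/+ iOLs, so it was tested, and counted among the higher genes, only through its Med23-/- libraries. Chosen after their values were seen, the other higher genes were Fzd8, Ptk7 and Reck, with log2 differences of 0.42, 0.41 and 0.31. Ryk, the receptor gene of the list with the highest level, was at 31.7 ± 1.67 and 32.2 ± 2.14 FPKM and did not pass.

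The secretion and R-spondin list had 11 genes, of which 6 were tested, 2 rose, beside 15.9% of all genes tested, and 4 did not pass. Rnf43, a ubiquitin ligase that removes Frizzled from the membrane, was at 1.62, 1.33, 1.10 and 1.26 FPKM in Med23+/+ and 3.60, 3.81, 2.64 and 3.12 FPKM in Med23-/- libraries (log2 difference 0.88, limma adjusted p = 0.000875). Znrf3, its paralog, lay between 5.52 and 6.09 FPKM in all 8 libraries (chosen after its values were seen). Lgr5, an R-spondin receptor gene, was at 1.79, 1.97, 2.05 and 2.42 FPKM in Med23+/+ and 2.79, 2.58, 4.90 and 6.97 FPKM in Med23-/- libraries (log2 difference 0.72, limma adjusted p = 0.0431). Its call was lost without any 1 Med23+/+ library or without Med23-/- replicate 3 or 4 (log2 difference 0.50 to 0.78, adjusted p = 0.0638 to 0.103). It was also lost after quantile normalization (0.57, adjusted p = 0.115), with sample weights (adjusted p = 0.0806) and without the filter on low values (adjusted p = 0.0755). Porcn, the acyltransferase gene of ligand secretion and the highest of the list, had a log2 difference of -0.07 and did not pass.

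Extracellular inhibitors were mostly below the limit for testing, with 5 of 17 tested. Of the 5 genes, 3 were higher, beside 15.9% of all genes tested, 0 were lower, beside 14.1%, and 2 did not pass. Sfrp2, a secreted Frizzled-related protein gene, was at 1.77, 2.02, 1.16 and 1.27 FPKM in Med23+/+ and 6.05, 4.58, 3.83 and 5.24 FPKM in Med23-/- libraries (log2 difference 1.21, SE 0.15, limma adjusted p = 0.000444). Kremen1, a receptor of the Dickkopf inhibitors, rose from 2.20 ± 0.424 to 4.30 ± 0.586 FPKM (SD, n = 4 each; log2 difference 0.73, limma adjusted p = 0.00238). Frzb, another gene of the Frizzled-related family, rose from 0.702 ± 0.215 to 1.81 ± 0.422 FPKM (log2 difference 0.72, limma adjusted p = 0.00723). Its Med23+/+ mean was below the limit of 1 FPKM, so it was tested, and counted among the higher genes, only through its Med23-/- libraries. The libraries of the genotypes did not overlap for any of these 3 genes, beside 31.6% of all genes tested that did not overlap. The 3 genes were named because they passed, so their separation adds no support of its own.

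Dishevelled and its binding proteins held changes in both directions, with 9 of 11 genes tested and 5 not passed (median log2 difference 0.05). The list had 1 lower gene, beside 14.1% of all genes tested, and 3 higher genes, beside 15.9%. Dact1, whose product binds and restrains Dishevelled, was at 1.87, 1.24, 0.92 and 2.19 FPKM in Med23+/+ and 6.91, 6.67, 7.07 and 9.32 FPKM in Med23-/- libraries, where replicate 4 stood highest. Its log2 difference was 1.75 (SE 0.17, limma adjusted p = 0.000116), close to that of Nkd1 in the same list. Dixdc1, which encodes a positive regulator with the same type of polymerizing domain as Dishevelled and Axin, fell from 15.5, 16.6, 21.0 and 16.3 FPKM to 5.18, 6.92, 6.29 and 3.69 FPKM (log2 difference -1.51, SE 0.16, limma adjusted p = 0.000189). The formin gene Daam1, the paralog of Daam2, rose from 16.7 ± 1.36 to 21.9 ± 3.12 FPKM (log2 difference 0.36, limma adjusted p = 0.0292). That call was lost without Med23+/+ replicate 1 or 2 or without Med23-/- replicate 1, 3 or 4 (adjusted p = 0.0511 to 0.0746). Dvl3, the highest of the Dishevelled list, had a log2 difference of -0.14 and did not pass.

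All 20 genes of the destruction complex and its regulators were tested (median log2 difference -0.11). Of the 20 genes, 5 fell, beside 14.1% of all genes tested, 2 rose, beside 15.9%, and 13 did not pass. None changed past the fold limit. Ppp2ca, a catalytic subunit gene of protein phosphatase PP2A, fell from 204.5 ± 19.0 to 146.2 ± 2.87 FPKM (log2 difference -0.48, limma adjusted p = 0.00248). Apc2, the neural APC paralog, fell from 52.2 ± 6.58 to 38.0 ± 4.56 FPKM (log2 difference -0.45, limma adjusted p = 0.0167), a call that was lost without Med23+/+ replicate 3 (-0.39, adjusted p = 0.0508). Rnf146, a ubiquitin ligase that degrades Axin after the tankyrases have modified it, had a log2 difference of -0.31 (limma adjusted p = 0.0435), and only the fits without Med23+/+ replicate 1 and without Med23-/- replicate 2 kept this call (adjusted p = 0.0529 to 0.113 in the other 6). It was lost as well after quantile normalization (-0.22, adjusted p = 0.149) and in 4 other alternatives (adjusted p = 0.0502 to 0.0634). Chosen after their values were seen, Tnks2 and Gsk3b were the remaining lower genes, with log2 differences of -0.25 and -0.23. Amer2, an APC-binding membrane protein gene, rose from 8.69 ± 1.13 to 14.2 ± 1.59 FPKM (log2 difference 0.65, limma adjusted p = 0.00205), and Axin2 was the other higher gene.

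Among 17 nuclear cofactors of β-catenin, all of them tested, 3 fell, 3 rose and 11 did not pass (median log2 difference 0.06). Both counts were near the background of 14.1% lower and 15.9% higher. Tle1, a Groucho-type corepressor gene that binds TCF/LEF factors, was at 5.50, 4.29, 3.84 and 4.78 FPKM in Med23+/+ and 11.1, 10.4, 10.2 and 10.9 FPKM in Med23-/- libraries (log2 difference 1.06, SE 0.10, limma adjusted p = 0.000103). It alone in this list rose past the fold limit. Its paralog Tle3 rose from 19.7 ± 1.95 to 27.6 ± 3.71 FPKM (log2 difference 0.46, limma adjusted p = 0.0112). Bcl9, a coactivator that binds β-catenin, had a log2 difference of 0.47 (limma adjusted p = 0.0365), and the call was kept only without Med23-/- replicate 2 or 3 (adjusted p = 0.0595 to 0.0946 in the other 6 fits). The histone deacetylase genes Hdac1 and Hdac2, whose products are also known to act with TCF7L2 in oligodendrocytes, had log2 differences of -0.47 (limma adjusted p = 0.0319) and -0.32 (limma adjusted p = 0.0248). The Hdac1 call was lost without Med23+/+ replicate 3 or 4 or Med23-/- replicate 1 or 2 (adjusted p = 0.0781 to 0.0904), and that of Hdac2 without Med23+/+ replicate 2 or 3 or Med23-/- replicate 1 (adjusted p = 0.0632 to 0.068). Zbtb33, the Kaiso repressor gene, had a log2 difference of -0.27 (limma adjusted p = 0.0406), which did not pass without Med23+/+ replicate 2 or 3 or Med23-/- replicate 1, 3 or 4 (adjusted p = 0.0731 to 0.107). Quantile normalization ended the calls of Hdac2 (-0.20, adjusted p = 0.135), Hdac1 (-0.37, adjusted p = 0.0609), Zbtb33 (-0.23, adjusted p = 0.085) and Bcl9 (0.40, adjusted p = 0.0729). Without the filter on low values Hdac1, Zbtb33 and Bcl9 also did not pass (adjusted p = 0.0511 to 0.0654), nor did Zbtb33 with sample weights (0.0756) or without a variance trend (0.0501). Aes, the highest of the list, had a log2 difference of 0.09 and did not pass, and its Med23+/+ replicate 4, at 155 FPKM, stood above the other 3 at 129 to 131 FPKM.

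Of 20 widely used Wnt target genes 13 were tested (median log2 difference 0.72). Among the 13 genes, 9 rose, beside 15.9% of all genes tested, 1 fell, beside 14.1%, and 3 did not pass. Past both limits 4 rose, beside 2.98% of all genes tested. These were Nkd1, Ccnd1, Ccnd2 and Sp5, the last with a log2 difference of 1.02 and chosen after its values were seen. Rnf43, Fzd7 and Lgr5 were 2.48, 2.64 and 2.09 times as high by the ratio of mean FPKM, but at their low levels they stayed below the fold limit, which is set on FPKM + 1. Of these, Fzd7 had reached the limit for testing only through its Med23-/- libraries. Ccnd1, a G1 cyclin gene, was at 44.9, 51.7, 40.2 and 58.2 FPKM in Med23+/+ and 129.7, 98.1, 126.4 and 201.8 FPKM in Med23-/- libraries, without overlap (log2 difference 1.46, SE 0.20, limma adjusted p = 0.000679). Ccnd2, another G1 cyclin gene, was at 30.9, 27.5, 16.3 and 19.8 FPKM in Med23+/+ and 45.1, 32.3, 48.1 and 75.7 FPKM in Med23-/- libraries (log2 difference 1.04, SE 0.26, limma adjusted p = 0.0142). Its groups were separated only narrowly, by replicate 2 of Med23-/- and replicate 1 of Med23+/+. Myc, a growth-promoting factor gene that answers to many signals besides Wnt, moved in the opposite direction, from 111.8, 103.7, 105.6 and 106.6 FPKM to 62.1, 59.1, 43.2 and 58.9 FPKM (log2 difference -0.94, SE 0.11, limma adjusted p = 0.000309). The other target genes that rose were Axin2, Rnf43, Lgr5, Fzd7 and Tnfrsf19, the last with a log2 difference of 0.80 and chosen after its values were seen. Apcdd1, Znrf3 and Zcchc12 did not pass.

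The genes whose profile over the 8 libraries was nearest to that of Tcf7l2 were sought among the 9434 genes that averaged 5 FPKM or more, by the root mean square difference of log2(FPKM + 1) after each gene was centred on its own mean. The nearest was Fyn, the Src-family kinase gene known for its part in oligodendrocyte differentiation, at a distance of 0.094. Bcor (0.126), a corepressor gene, Nfkbib (0.139), an inhibitor gene of NF-κB, Agpat4 (0.148), a gene of phospholipid synthesis, and Snx18 (0.155), a gene of membrane traffic, followed. Fyn was at 412.2, 397.9, 444.1 and 376.3 FPKM in Med23+/+ and 165.9, 191.5, 157.8 and 169.5 FPKM in Med23-/- libraries. As for Tcf7l2, replicate 2 was the highest and replicate 3 the lowest of the Med23-/- libraries. The log2 differences of the 5 genes ran from -1.31 (Nfkbib) to -1.23 (Bcor), close to the -1.36 of Tcf7l2. These likenesses are a description over 8 libraries that fall into 2 genotypes, so any gene with a decrease of similar size comes near.

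**Figure D4:**
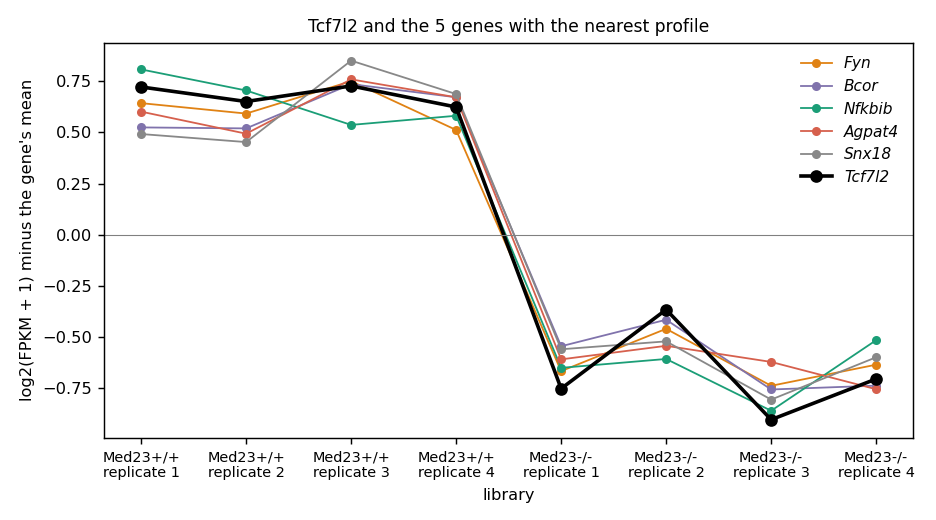
Profiles of Tcf7l2 (black) and its 5 nearest genes over the 8 libraries, as log2(FPKM + 1) minus the mean of the gene over all libraries. Points are libraries, and lines join the libraries of a gene only to guide the eye. All 6 genes lie above 0 in the Med23+/+ libraries and below 0 in the Med23-/- libraries.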

How the data were processed

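RNA-seq libraries of 4 Med23+/+ and 4 Med23-/- iOL samples were analysed, and groups were taken from the labels. Libraries had been prepared from total RNA with an NEB kit and sequenced on the Illumina X-10 platform. After FastQC and trimming by Cutadapt, the authors mapped reads to mm10 (Tophat2) and quantified genes by cuffdiff with its fragment bias and multi-read corrections. Tool versions, the annotation, the strand setting and the library normalization are not given in the sources used here. The authors deposited FPKM values per library for 24346 gene symbols, and 0 library columns were left out. Columns with cuffdiff's own means, fold changes, p-values and q-values were not used.

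FPKM was transformed to log2(FPKM + 1), and genes averaging 1 FPKM or more were tested by genotype in limma (version 3.58.1, under R 4.3.3) by lmFit and trended eBayes without a replicate block, with Benjamini-Hochberg adjustment over all 12328 genes. The fold limit was a fold change of FPKM + 1 above 2. The procedure was tested on simulated data. The number of replicates limits the precision, and read depth is unknown.

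The 10 genes and all lists were chosen with earlier results of these data known, so no list was given a test of its own. Named are Med23, the 10 genes, the highest gene of each Wnt list with up to 3 lower and 3 higher passing genes of largest log2 difference, and the 5 genes nearest to Tcf7l2. Gene coordinates are from GENCODE vM21 (mm10), promoter windows from RefSeq (GRCm38.p6). Alternatives were another pseudocount (0.1), other filters, quantile and median-ratio scaling, sample weights, an untrended variance, a replicate block, a covariate for replicates 1 and 2 against 3 and 4, and leaving out each library. Replicates 1 and 2 only and replicates 3 and 4 only were added after seeing the data. Tables were made with Python 3.11.15 and pandas 2.3.3, figures with matplotlib 3.10.9.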

Additional observations from a re-analysis of the deposited data

Results flagged for a closer look

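Within a genotype, 4 of the 92 groups of 4 libraries examined, from 46 named genes, had 1 library set apart from the other 3 by a gap, relative to the range of the group, above Dixon's 95% critical value, and chance sets apart about 1 in 20 groups. Daam2 was at 3.69 FPKM in Med23+/+ replicate 1 and at 2.31 to 2.52 FPKM in the other Med23+/+ libraries. Aes was at 155 FPKM in Med23+/+ replicate 4, against 129 to 131 FPKM. Dact1 was at 9.32 FPKM in Med23-/- replicate 4, against 6.67 to 7.07 FPKM, all above the Med23+/+ values. Myc was at 43.2 FPKM in Med23-/- replicate 3, against 58.9 to 62.1 FPKM, all below the Med23+/+ values.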

How the results depend on the processing

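Tcf7l2 and Nkd1 passed in every alternative and in all 8 fits that left out 1 library (log2 difference -1.47 to -1.29 and 1.55 to 1.81 in the latter), Tcf7l1 in all but replicates 1 and 2 only. Leaving out 1 library gave 1227 to 1669 lower and 1531 to 1867 higher genes, beside 1738 and 1957. With a mean of at least 5 FPKM, 1281 of 9434 genes tested were higher, beside 1957 of 12328. The fold limit left 216 lower and 367 higher genes and 1 of the 10 genes in each direction. Replicates 1 and 2 only gave 724 lower and 791 higher genes, with 1 of the 10 genes each way, and replicates 3 and 4 only gave 566 and 845, with 1 of the 10 higher. Quantile normalization left 1 of the 10 genes higher and a Tcf7l2 share difference of -3.08 points, there a share of Tcf7l2 and Tcf7l1 only. The low counts of the fits on 4 libraries follow fewer samples. The stricter filter tested fewer genes, and the fold limit, as an added condition, can only lower a count. For the other shifts the cause was not tested. Of the other values for single named genes, 729 kept direction and call and 83 kept the direction but no longer passed. Signs turned only for genes that did not pass: Apcdd1 (-0.02, quantile), Daam2 (-0.13 quantile, -0.01 with sample weights, -0.31 in replicates 1 and 2, and -0.13 to 0.15 with 1 library left out), Ryk (-0.02 in replicates 3 and 4, and -0.02 to 0.05 with 1 library left out), Aes (-0.00 to 0.18 with 1 library left out), Dvl3 (0.02 in replicates 1 and 2) and Axin1 (-0.05 in replicates 3 and 4). Same-numbered libraries did not all deviate together (correlations 0.13, -0.096, -0.026 and 0.159), and not every library correlated best with its own number. With 1 value for each number, pairing cannot be decided. Med23+/+ replicate 1 had correlations of 0.13 and 0.162 with Med23-/- replicates 1 and 2, and of -0.144 and -0.128 with replicates 3 and 4. For Med23+/+ replicate 4 these were -0.179 and -0.139, then 0.142 and 0.159. Med23+/+ replicates 2 and 3 gave values from -0.096 to 0.1. With the replicate number as a block, 1835 genes were lower and 2085 higher, with 2 of the 10 genes each way. Without read counts, depth limits cannot be given.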
